A study of Rattus norvegicus with 17 samples.

Results

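The 10 genes described here carry TGF-beta signals in the meibomian gland (MG), the oil gland of the eyelid margin. They are the ligand genes Tgfb1, Tgfb2, Tgfb3 and Inhba, the receptor genes Tgfbr1 and Tgfbr2, the signal transducer genes Smad2, Smad3 and Smad7, and Tgfbi, a secreted matrix protein named for its induction by TGF-beta. They were picked by name from the 17251 genes of the expression table, and all 10 were listed. RNA was sequenced from dissected MGs of female Sprague-Dawley rats aged 10 to 12 weeks. The groups were Control WT (n = 4), Control P1.hMR (n = 5), UVB WT (n = 3) and UVB P1.hMR (n = 5). WT rats carried no transgene. P1.hMR rats carried the human mineralocorticoid receptor (MR) gene NR3C2 under its own proximal P1 promoter, a promoter that is not specific to the MG. The UVB groups received ultraviolet-B light on the eyelids for 5 days, and the Control groups received none. The study counted its UVB material by eyes and states that eyes analysed together were pooled as a single sample, so each library is called a rat below. NR3C2 was listed at 0 in every WT rat and at 5.31 to 9.31 TPM, the unit of all levels here, in the P1.hMR rats, as the labels have it. The meibocyte markers summed to 42502 to 56189 TPM across the 17 rats, and between 12372 and 12737 genes reached 1 TPM in each rat.

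TGF-beta ligands are secreted in a latent form, bound to a propeptide and often to a matrix-anchored binding protein, and must be released before they act. The active dimer binds the type II receptor, which recruits and phosphorylates the type I receptor. That kinase phosphorylates Smad2 and Smad3, which enter the nucleus with Smad4, while Smad7 blocks the receptor and is itself a target of the pathway. In skin and its glands the pathway is known for restraining epithelial growth and for driving matrix production by fibroblasts. All values below are messenger RNA levels of whole glands. They say nothing of ligand activation or Smad phosphorylation, and fewer cells of a type and less RNA per cell cannot be told apart in them.

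TPM counts the transcripts of a gene per fixed total of a library, after division by transcript length. Because of that division, levels can be set side by side between genes. In the 9 Control rats Tgfbi had the highest level of the 10 genes, at 69.1 TPM ± 9.75 (SD). It was followed by Tgfbr2 at 35.9 ± 3.39 TPM and Smad2 at 34.2 ± 1.14 TPM, which overlapped between rats, Tgfbr2 being the higher in 7 of 9. Tgfb1, at 22.0 ± 2.24 TPM, was the most abundant ligand and stood above Tgfb3 (12.99 ± 0.987 TPM) in 9 of 9 Control rats. Smad7 (10.8 ± 1.03 TPM) and Tgfbr1 (10.7 ± 0.639 TPM) could not be ordered, since Smad7 was the higher in 4 of 9 rats. Smad3 (6.56 ± 0.483 TPM) and Tgfb2 (5.57 ± 0.948 TPM) also overlapped, with Smad3 above in 7 of 9, and Inhba was lowest at 1.21 ± 0.31 TPM. The receptor pair was thus uneven, with the type II receptor mRNA above the type I mRNA in every rat, and so was the Smad pair, with Smad2 above Smad3. In the 8 UVB rats the order was the same except that Smad7 and Tgfbr1 changed places while still overlapping, Tgfbr1 being the higher in 4 of 8. Smad3 and Tgfb2 overlapped in the Control rats and no longer overlapped in the UVB rats, where Tgfb2 had 3.81 ± 0.559 TPM and Smad3 5.66 ± 0.494 TPM.

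**Figure D1:**
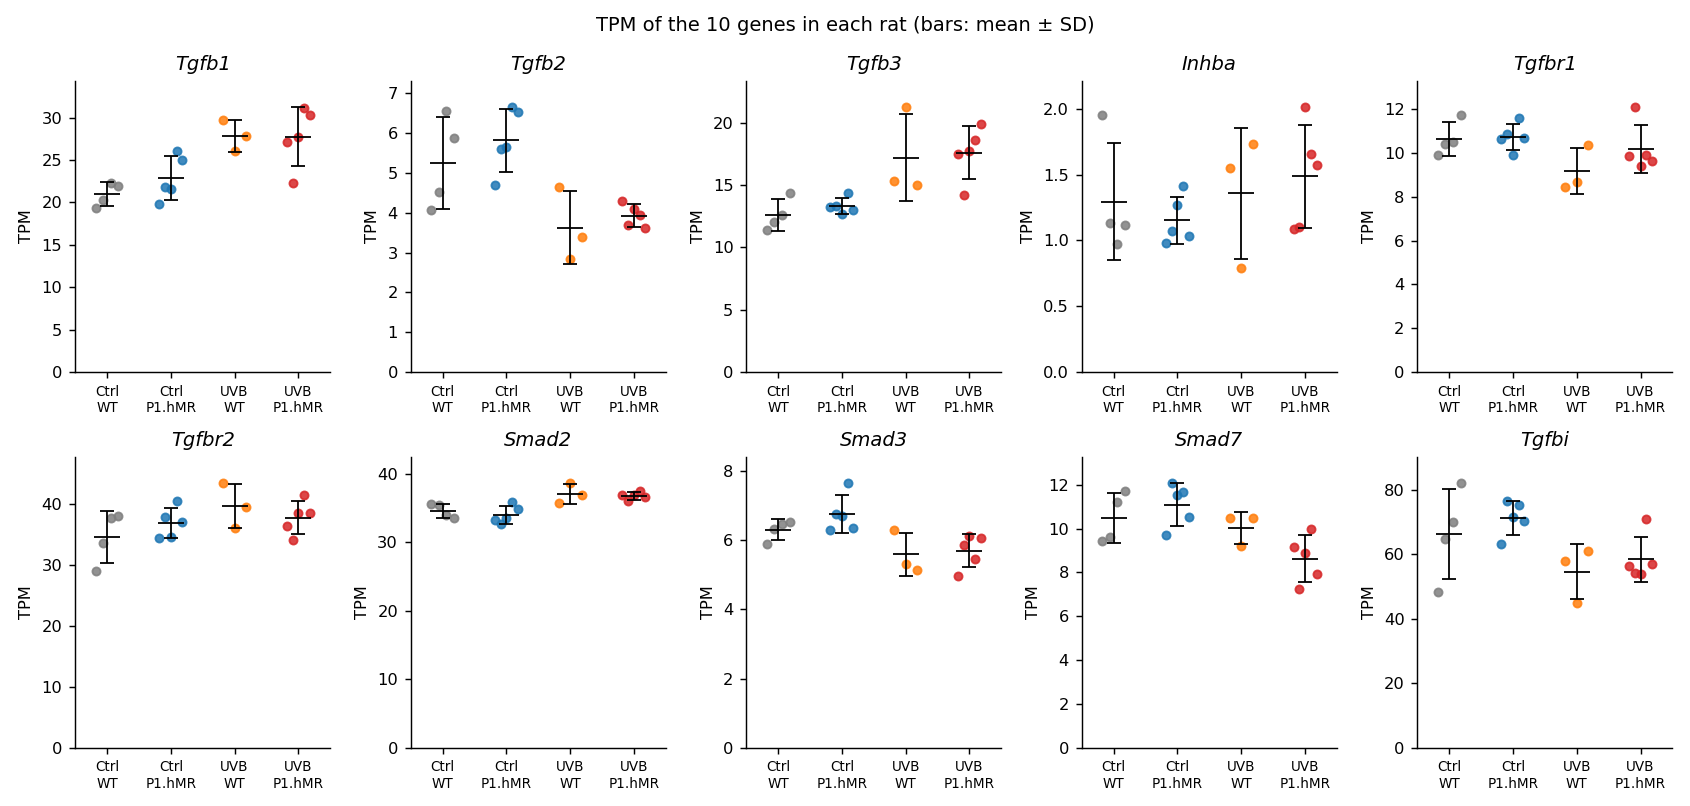
TPM of the 10 genes (vertical axes, linear from 0) in the 4 groups, with a point for each rat and bars for the group mean ± SD. Tgfb1 and Tgfb3 sit higher and Tgfb2 lower in the UVB groups, whereas Tgfbr2 and Inhba overlap between all groups.

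The effect of UVB was tested with limma on log2(TPM + 1) over the 13105 genes that reached 1 TPM in at least 3 rats. With the thresholds the study set, a differentially expressed gene (DEG) needed a Benjamini-Hochberg adjusted p below 0.05 and a log2 fold change of 0.5 or more in either direction. None of the 10 genes was a DEG in WT, where 7.91% of all tested genes were, nor in P1.hMR (10.8% of all genes) nor for the UVB effect averaged over the genotypes (9.48%). At an unadjusted p below 0.05 the counts were 6, 7 and 8 of 10, beside 35.3%, 47.6% and 54.0% of all genes. By adjusted p alone, 3 of 10 passed in WT (21.5% of all genes did), 6 of 10 in P1.hMR (39.1%) and 7 of 10 for the averaged effect (47.2%). The 7 were Tgfb1, Tgfb3 and Smad2, which rose (3 of 10, beside 23.3% of all genes), and Tgfb2, Smad3, Smad7 and Tgfbi, which fell (4 of 10, beside 24.0%). The log2(TPM + 1) scale understates the changes of low genes. On it the averaged UVB effects on the 10 genes lay between -0.45 and 0.39 and ran in both directions. The median of the 10 was -0.02, beside -0.01 over all tested genes. All 10 genes passed the filter on low values. The TPM of UVB and control rats did not overlap for Tgfb1, Tgfb3 and Smad2 in WT (3 of 10, beside 26.6% of all genes) and for Tgfb2, Smad2 and Smad3 in P1.hMR (3 of 10, beside 27.2%). With the genotypes pooled, 0 of 10 genes separated the UVB rats from the control rats, beside 10.8% of all genes.

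**Figure D2:**
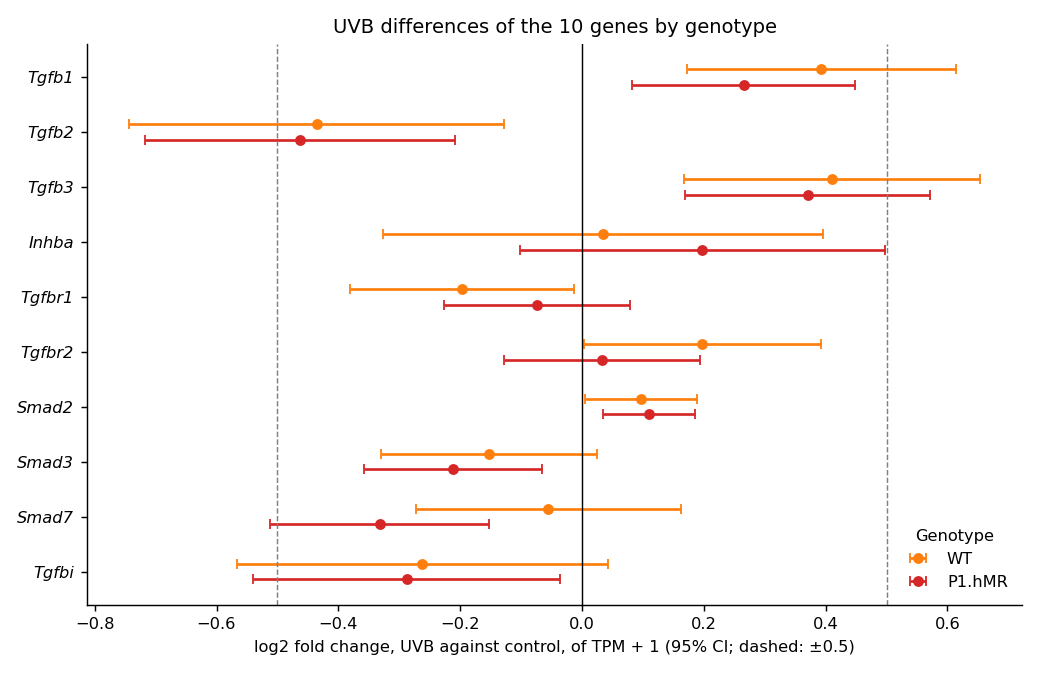
log2 fold change of TPM + 1 (horizontal axis) between UVB and control rats for the 10 genes, in WT (orange) and P1.hMR (red), as limma estimates with 95% confidence intervals. No point passes the dashed lines at a change of 0.5 either way, and the intervals of Tgfb1, Tgfb2, Tgfb3 and Smad2 exclude 0 in both genotypes.

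Tgfb1, Tgfb2 and Tgfb3 encode the 3 TGF-beta isoforms, which use the same receptors. The isoforms moved in opposite directions, so the 250 bases before the start of each gene are shown, from the RefSeq promoter table of build GRCr8 (10 of 10 genes matched). The Tgfb1 window lay at chr1:90324062-90324311 (+ strand), the Tgfb2 window at chr13:100792686-100792935 (- strand) and the Tgfb3 window at chr6:111456947-111457196 (- strand). All are written 5′ to 3′, and none has letters in capitals because none holds a motif that was searched.
Tgfb1: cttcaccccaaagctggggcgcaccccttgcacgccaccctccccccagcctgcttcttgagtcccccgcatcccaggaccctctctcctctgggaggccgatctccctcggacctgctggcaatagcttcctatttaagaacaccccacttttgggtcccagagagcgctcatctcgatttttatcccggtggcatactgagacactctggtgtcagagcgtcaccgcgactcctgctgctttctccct
Tgfb2: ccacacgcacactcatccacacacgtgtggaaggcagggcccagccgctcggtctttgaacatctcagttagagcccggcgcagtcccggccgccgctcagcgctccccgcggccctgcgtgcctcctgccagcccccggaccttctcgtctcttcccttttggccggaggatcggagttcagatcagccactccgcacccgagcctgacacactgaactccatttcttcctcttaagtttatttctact
Tgfb3: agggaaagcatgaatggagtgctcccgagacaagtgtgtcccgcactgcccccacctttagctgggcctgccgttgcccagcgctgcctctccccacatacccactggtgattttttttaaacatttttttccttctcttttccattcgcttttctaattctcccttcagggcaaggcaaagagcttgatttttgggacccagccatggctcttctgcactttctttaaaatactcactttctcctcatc
The motifs, all read on both strands, were the Smad box CAGAC or GTCTG, the AP-1 site TGANTCA, the paired steroid receptor half-sites ACANNNTGT, the TATA box TATAAA, the CCAAT box CCAAT or ATTGG, and the GC box GGGCGG or CCGCCC. They occur in 42.9%, 6.34%, 5.81%, 12.9%, 34.0% and 30.5% of the 33469 rat promoters in the table. The last 3 motifs were added after the first 3 had been found in no window of the 10 genes. The absence of these letters says nothing about the factors that read them. The windows differed in base composition, with 60.0% G or C for Tgfb1, 61.6% for Tgfb2 and 48.8% for Tgfb3, beside a median of 51.2% over all promoters.

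Tgfb1, the isoform tied to inflammation and scarring, was higher after UVB in both genotypes. Its TPM in Control WT rats was 19.3, 20.32, 22.3 and 22.0, and in UVB WT rats 29.73, 26.05 and 27.79. In Control P1.hMR rats it was 19.88, 21.86, 21.58, 26.08 and 24.96, and in UVB P1.hMR rats 27.19, 22.3, 27.76, 31.18 and 30.27. All UVB WT rats stood above all Control WT rats, whereas UVB P1.hMR rat 2 fell among the Control P1.hMR rats. On the log2 scale Tgfb1 differed by 0.39 (SE 0.104, adjusted p = 0.0139) in WT and 0.27 (SE 0.0863, adjusted p = 0.0224) in P1.hMR, both by limma. Mean TPM was 32.8% higher in WT and 21.3% higher in P1.hMR. The averaged effect was 0.33 (SE 0.0676, limma adjusted p = 0.000881). It passed in every leave-one-out fit, at 0.31 to 0.37. The P1.hMR result no longer passed when Control P1.hMR rat 1 or 3 or UVB P1.hMR rat 4 or 5 was left out (0.22 to 0.25), nor the WT result without UVB WT rat 1 (0.35).

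Tgfb3, an isoform known from epithelial fusion and wound repair, rose alongside Tgfb1. Control WT rats had 11.37, 12.01, 12.57 and 14.37 TPM, and UVB WT rats 15.33, 21.23 and 15.03 TPM. Control P1.hMR rats had 13.24, 13.33, 12.68, 14.35 and 12.97 TPM, and UVB P1.hMR rats 17.46, 14.22, 17.72, 18.66 and 19.93 TPM. The WT groups did not overlap, and in P1.hMR only UVB rat 2 fell within the control range. Tgfb3 differed on the log2 scale by 0.41 (SE 0.115, limma adjusted p = 0.0184) in WT, 0.37 (SE 0.0951, adjusted p = 0.00573) in P1.hMR and 0.39 (SE 0.0746, adjusted p = 0.000482) averaged. The size in WT leaned on UVB WT rat 2, the rat with the highest level: without it the change was 0.26 and did not pass (adjusted p = 0.114, limma), and with the WT rats fitted alone the adjusted p was 0.0788. The averaged effect passed with each rat left out in turn, at 0.31 to 0.43.

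Tgfb2, an isoform known from epithelial and ocular development, fell. Its TPM was 4.07, 4.53, 6.54 and 5.87 in Control WT rats and 4.64, 2.84 and 3.39 in UVB WT rats. It was 4.7, 5.59, 5.65, 6.64 and 6.53 in Control P1.hMR rats and 4.29, 3.7, 4.1, 3.94 and 3.61 in UVB P1.hMR rats. Every UVB P1.hMR rat lay below every Control P1.hMR rat, while UVB WT rat 1 lay above Control WT rats 1 and 2. By limma the change of Tgfb2 was -0.44 (SE 0.145, limma adjusted p = 0.0422) in WT, -0.46 (SE 0.12, adjusted p = 0.00625) in P1.hMR and -0.45 (SE 0.0944, adjusted p = 0.00104) averaged. Mean TPM was lower by about the same share in both genotypes, with a ratio of UVB to control of 0.69 in WT and 0.675 in P1.hMR. The WT result was the least firm of the ligands: it no longer passed with the WT rats fitted alone (adjusted p = 0.15), without the filter on low values (adjusted p = 0.0608), or when Control WT rat 3 or 4, Control P1.hMR rat 2 or 3, UVB WT rat 2 or 3 or UVB P1.hMR rat 3 was left out (-0.44 to -0.31). At this low level the size depended on the pseudocount, and with 0.1 added in place of 1 the change was -0.53 in WT, -0.55 in P1.hMR and -0.54 averaged, which made Tgfb2 a DEG in all 3 comparisons. It was also a DEG in WT without Control WT rat 1 (-0.53) or UVB WT rat 1 (-0.59), in P1.hMR without Control P1.hMR rat 1 (-0.53), and averaged without UVB WT rat 1 (-0.53). Exact two-sided permutation tests gave p = 0.171 in WT, where 0.0571 is the smallest p the design allows, 0.00794 in P1.hMR, the smallest possible there, and 0.00136 averaged.

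Within single rats the isoforms were compared as ratios, which do not depend on the scaling between rats. The ratio of Tgfb2 to Tgfb1 TPM was 0.211, 0.223, 0.293 and 0.267 in Control WT rats and 0.236, 0.256, 0.262, 0.255 and 0.262 in Control P1.hMR rats. After UVB it was 0.156, 0.109 and 0.122 in WT and 0.158, 0.166, 0.148, 0.126 and 0.119 in P1.hMR. The highest UVB rat (0.166) stood below the lowest Control rat (0.211), so the 8 UVB rats and the 9 Control rats did not overlap. This ratio sets a gene that fell against a gene that rose, so it is not independent of the results above. How often other such pairs of genes separate the treatments was not tested. The log2 ratio differed by -0.95 in WT, -0.84 in P1.hMR and -0.89 averaged. Exact permutation p-values were 0.0571, 0.00794 and 0.000227, each the smallest its design can give. After Benjamini-Hochberg adjustment over the 24 ratio tests of this kind these p-values were 0.274, 0.0952 and 0.00544, so only the averaged difference passed. Leaving out each rat in turn gave an averaged difference of -0.97 to -0.84. Tgfb2 made up 13.6% ± 1.29 of the summed TPM of the 3 isoforms in the 9 Control rats and 7.83% ± 1.29 (SD) in the 8 UVB rats. The sum of the isoforms was 40.6 ± 3.82 TPM in Control and 49.0 ± 4.36 TPM in UVB rats. The ratio of Tgfb3 to Tgfb1 showed no difference past the spread (averaged log2 difference 0.07, exact permutation p = 0.493). It was 0.815 in UVB WT rat 2 and 0.516 to 0.666 in the other 16 rats. The genotypes did not differ detectably in the Tgfb2 to Tgfb1 ratio, with log2 differences of 0.04 without UVB (exact permutation p = 0.683) and 0.16 under UVB (exact permutation p = 0.357).

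**Figure D3:**
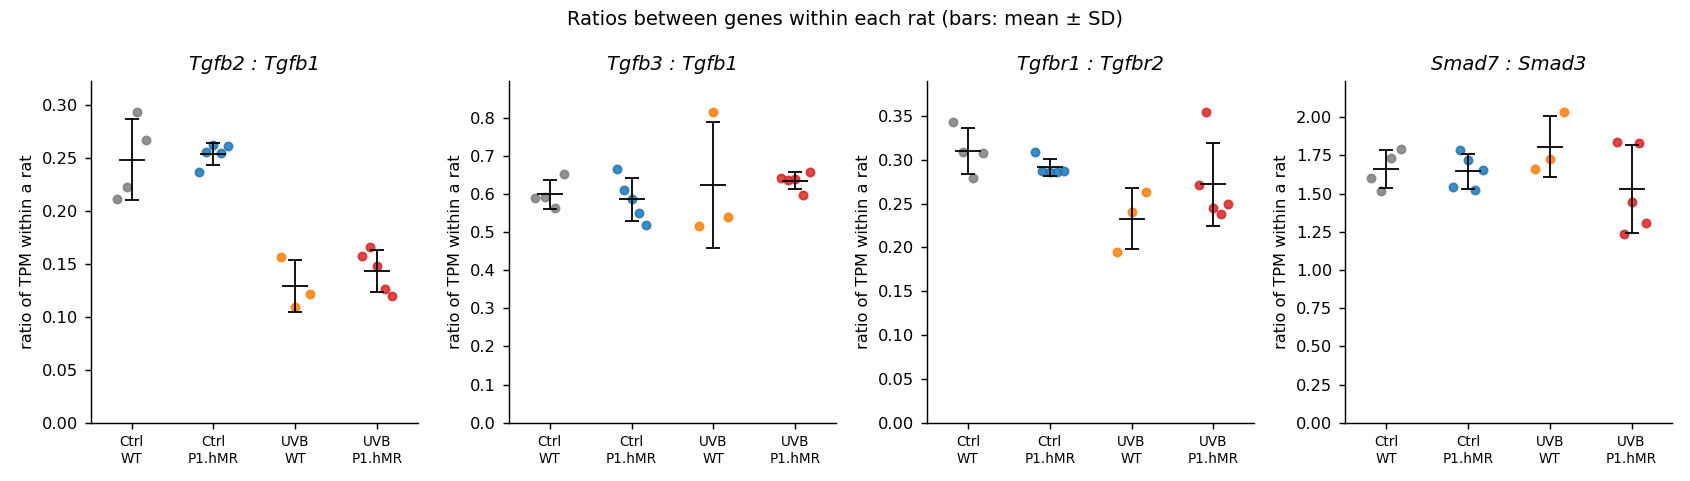
Ratio of the TPM of 2 genes within each rat (vertical axes, linear from 0), by group, with points for rats and bars for the mean ± SD. Tgfb2 to Tgfb1 lies between 0.211 and 0.293 in all Control rats and between 0.109 and 0.166 in all UVB rats, while Tgfb3 to Tgfb1 and Smad7 to Smad3 overlap between the treatments.

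Inhba encodes the subunit of activin A, a ligand that reaches Smad2 and Smad3 through its own receptors. It was near the detection filter, at 0.97 to 1.95 TPM in Control and 0.79 to 2.01 TPM in UVB rats. The groups overlapped, and the averaged log2 fold change of 0.12 (95% CI -0.12 to 0.35, limma adjusted p = 0.41) did not pass. The interval leaves room for a change in either direction.

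The receptor genes showed smaller differences than the isoforms. Their promoter windows, shown beside those of the ligands as the pair whose levels did not pass the test, lay at chr5:66449148-66449397 (+ strand) and chr8:124761470-124761719 (- strand) in GRCr8. Capitals mark CCAAT or GC boxes, of which Tgfbr1 had 2 and 3, and Tgfbr2 2 and 1.
Tgfbr1: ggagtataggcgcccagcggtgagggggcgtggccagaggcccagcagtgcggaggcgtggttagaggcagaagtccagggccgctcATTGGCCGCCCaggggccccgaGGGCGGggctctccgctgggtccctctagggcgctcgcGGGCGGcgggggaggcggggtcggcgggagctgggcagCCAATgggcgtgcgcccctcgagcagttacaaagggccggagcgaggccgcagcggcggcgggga
Tgfbr2: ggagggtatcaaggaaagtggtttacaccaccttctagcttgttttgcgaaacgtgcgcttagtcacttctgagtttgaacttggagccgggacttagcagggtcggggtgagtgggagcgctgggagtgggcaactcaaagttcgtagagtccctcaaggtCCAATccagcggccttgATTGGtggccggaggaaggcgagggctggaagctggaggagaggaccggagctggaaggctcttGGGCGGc
G and C made up 75.6% of the Tgfbr1 window and 58.0% of the Tgfbr2 window. Tgfbr1, the type I receptor kinase, had 9.93 to 11.74 TPM in Control WT, 9.9 to 11.59 in Control P1.hMR, 8.44 to 10.38 in UVB WT and 9.42 to 12.08 in UVB P1.hMR rats. All 4 ranges overlapped. For Tgfbr1 the log2 fold change was -0.20 (SE 0.0869, limma adjusted p = 0.116) in WT, -0.07 (SE 0.072, adjusted p = 0.444) in P1.hMR and -0.14 (SE 0.0564, adjusted p = 0.0584) averaged. The averaged value passed when Control WT rat 1 (-0.15), Control P1.hMR rat 3 (-0.15), UVB WT rat 3 (-0.18) or UVB P1.hMR rat 2 (-0.16) was left out, and the WT value without UVB WT rat 3 (-0.28). With sample weights the averaged value also passed (-0.14, adjusted p = 0.0436). UVB P1.hMR rat 2, at 12.08 TPM, was the highest of all 17 rats for this gene. Tgfbr2, the type II receptor that binds the ligand first, had 28.93 to 38.09 TPM in Control WT, 34.39 to 40.5 in Control P1.hMR, 36.14 to 43.42 in UVB WT and 34.09 to 41.55 in UVB P1.hMR rats. Its averaged log2 fold change was 0.11 (95% CI -0.01 to 0.24, limma adjusted p = 0.124). The within-rat ratio of Tgfbr1 to Tgfbr2 was 0.279 to 0.343 in Control WT and 0.194 to 0.263 in UVB WT rats, which did not overlap. In P1.hMR it was 0.286 to 0.309 and 0.239 to 0.354, which overlapped through UVB P1.hMR rat 2. The log2 difference was -0.42 in WT (exact permutation p = 0.0571, the smallest possible), -0.11 in P1.hMR (exact permutation p = 0.333) and -0.27 averaged (exact permutation p = 0.0127, 0.102 after adjustment over the 24 ratio tests). Leaving out each P1.hMR rat in turn gave a P1.hMR difference of -0.21 to -0.07, with exact permutation p up to 0.571. The -0.21 was the value without UVB P1.hMR rat 2 (exact permutation p = 0.0159, not adjusted).

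Smad2 and Smad3 encode the receptor-activated Smads, and they moved apart slightly. Smad2 had 35.53, 35.35, 33.89 and 33.48 TPM in Control WT and 35.74, 38.6 and 36.81 TPM in UVB WT rats. It had 33.22, 32.6, 33.58, 35.79 and 34.77 TPM in Control P1.hMR and 36.94, 35.93, 36.85, 37.41 and 36.63 TPM in UVB P1.hMR rats. Within each genotype every UVB rat lay above every control rat, though narrowly. Its log2 fold change was 0.10 in WT (SE 0.0433, limma adjusted p = 0.12), 0.11 in P1.hMR (SE 0.0359, adjusted p = 0.0227) and 0.10 averaged (SE 0.0281, adjusted p = 0.00645). Smad2 thus rose by a small amount with a small spread, the mean TPM being 7.2% higher in WT and 8.12% higher in P1.hMR. The P1.hMR value did not pass without Control P1.hMR rat 2 (0.10).

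Smad3, the Smad that binds DNA directly at many TGF-beta targets, fell. It had 5.89, 6.33, 6.48 and 6.54 TPM in Control WT and 6.3, 5.32 and 5.15 TPM in UVB WT rats. It had 6.3, 6.76, 6.7, 7.65 and 6.35 TPM in Control P1.hMR and 4.98, 5.85, 6.13, 5.45 and 6.06 TPM in UVB P1.hMR rats. UVB WT rat 1 stayed within the control range, and the P1.hMR groups did not overlap. The log2 fold change was -0.15 in WT (SE 0.0837, limma adjusted p = 0.206), -0.21 in P1.hMR (SE 0.0693, adjusted p = 0.0231) and -0.18 averaged (SE 0.0543, adjusted p = 0.0114). The P1.hMR value was lost without Control P1.hMR rat 4 or UVB P1.hMR rat 1, each at -0.17, while the averaged value passed with each rat left out.

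Smad7 encodes the inhibitory Smad, which TGF-beta itself induces. It had 9.44, 9.62, 11.22 and 11.71 TPM in Control WT and 10.46, 9.19 and 10.47 TPM in UVB WT rats. It had 9.7, 12.07, 11.53, 11.66 and 10.51 TPM in Control P1.hMR and 9.16, 7.22, 8.87, 9.99 and 7.91 TPM in UVB P1.hMR rats. The WT groups overlapped, although UVB WT rat 2 lay below every Control WT rat, and in P1.hMR the UVB rats were lower except that rat 4 exceeded Control P1.hMR rat 1. Smad7 had a log2 fold change of -0.06 in WT (SE 0.103, limma adjusted p = 0.739), -0.33 in P1.hMR (SE 0.085, adjusted p = 0.00563) and -0.19 averaged (SE 0.0666, adjusted p = 0.0249). A test of the difference between the genotypes did not pass: the interaction was -0.28 (95% CI -0.56 to 0.01), with a limma p of 0.0539 before and 0.714 after adjustment and an exact permutation p of 0.0598. The averaged value was lost without Control WT rat 3 (-0.18) or 4 (-0.17) or UVB WT rat 2 (-0.17). The ratio of Smad7 to Smad3 within rats showed no averaged difference, with a log2 value of -0.00091 that changed sign with the rat left out (-0.04 to 0.04, exact permutation p = 0.997 with all rats).

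Tgfbi, the matrix protein at the end of the pathway, had the highest level and fell. It ranged from 48.17 to 82.06 TPM in Control WT, 63.16 to 76.44 in Control P1.hMR, 44.94 to 60.98 in UVB WT and 53.79 to 70.81 in UVB P1.hMR rats. Groups overlapped in both genotypes, and Control WT rat 1 (48.17 TPM) was the lowest of the control rats. The log2 fold change was -0.26 in WT (SE 0.144, limma adjusted p = 0.208), -0.29 in P1.hMR (SE 0.119, adjusted p = 0.066) and -0.27 averaged (SE 0.0935, adjusted p = 0.0237). The averaged value did not pass without Control WT rat 4 (-0.22) or UVB WT rat 2 (-0.21). The WT value passed without Control WT rat 1 (-0.40). The P1.hMR value passed without Control WT rat 1 or 4 (-0.29), which change only the shared spread and the adjustment there, and without UVB P1.hMR rat 4 (-0.36). It also passed with the P1.hMR rats fitted alone (limma adjusted p = 0.0123) and with sample weights (-0.30, adjusted p = 0.0195).

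The comparisons of genotype asked whether MR overexpression altered these genes. Without UVB, 0 of 10 genes was a DEG between P1.hMR and WT by limma, beside 0.00763% of all tested genes, and 0 passed an unadjusted p below 0.05 (4.03% of all genes did). The log2 fold changes lay between -0.08 (Inhba) and 0.14 (Tgfb2), with 95% confidence intervals reaching from -0.39 to 0.41. Under UVB, 0 of 10 was a DEG, beside 0.0229%, and 0 passed an unadjusted p below 0.05 (10.3% of all genes). The range was -0.20 (Smad7, limma adjusted p = 0.494) to 0.14 (Tgfbr1, adjusted p = 0.605), with intervals reaching from -0.41 to 0.43. The interaction of genotype and UVB gave 0 of 10, beside 0.0% of all genes, again with 0 at an unadjusted p below 0.05 (6.92%). The outermost ends belonged to Inhba and Tgfb2 without UVB, and to Smad7 and Inhba under UVB. Under UVB the 95% confidence interval was -0.22 to 0.20 for Tgfb1, -0.19 to 0.40 for Tgfb2 and -0.19 to 0.27 for Tgfb3. For Smad2 it was -0.10 to 0.08. Equal levels in the genotypes were thus not shown, and the room left for a difference varied between the genes.

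The wider pathway was described with 5 lists of genes around the 10. Among 20 tested genes of other ligands and ligand activation, 4 were DEGs for the averaged UVB effect, 2 higher and 2 lower, beside 4.6% of all tested genes higher and 4.88% lower. Inhbb, the other activin subunit, rose by 0.61 (SE 0.0948, limma adjusted p = 8.7e-05), and Ltbp2, a matrix protein of the latent TGF-beta binding protein family, by 0.57 (SE 0.0847). Inha, the inhibin alpha subunit that turns activin subunits into inhibins, fell by 0.63 (SE 0.075), and Mstn, the muscle growth inhibitor myostatin, fell by 0.76 (SE 0.171). Mean TPM of Inhbb went from 4.47 to 7.25 in WT and from 4.62 to 7.81 in P1.hMR, and that of Inha from 2.76 to 1.37 and from 2.68 to 1.44. By adjusted p alone, 7 of the 20 rose and 6 fell, and the list's median was -0.05. The DEGs of the ligand list were thus activin and inhibin subunits, a matrix protein and a muscle gene. Restricted to genes with a mean of at least 5 TPM, the list held 1 DEG. Of 8 skeletal muscle markers 2 were lower DEGs as well, and the part of muscle tissue in the Mstn value was not tested.

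Of 11 other receptors and co-receptors tested, 1 was a DEG. Eng, the endothelial co-receptor endoglin, rose by 0.83 (SE 0.114, limma adjusted p = 2.82e-05), from 20.1 to 37.9 TPM in WT and from 22.0 to 37.8 TPM in P1.hMR. By adjusted p alone 4 rose and 1 fell, with a median of 0.04. Of 10 other Smads and Smad partners, 0 was a DEG by limma, 4 passed an unadjusted p below 0.05 (54.0% of all genes did), and 1 rose and 3 fell by adjusted p alone (median -0.03). A pseudocount of 0.1 gave 1 DEG in that list. Of 17 antagonists and feedback genes 1 was a DEG: Dcn, the collagen-binding proteoglycan decorin that can sequester TGF-beta, rose by 0.90 (SE 0.11, limma adjusted p = 8.39e-06). By adjusted p alone 6 rose and 5 fell in that list, and its median was 0.04. For the averaged effect the antagonist DEGs numbered 3 with a pseudocount of 0.1 and 2 with sample weights. In WT 3 of the 17 were DEGs, 1 higher and 2 lower, beside 7.91% of all genes. In P1.hMR 1 of the 17 was a higher DEG, beside 10.8%. Over all tested genes 9.48% were DEGs, and by adjusted p alone 23.3% rose and 24.0% fell.

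Of 22 tested TGF-beta response genes, 5 were DEGs, 4 higher and 1 lower, and the median was 0.19. All tested genes had 4.6% higher and 4.88% lower DEGs. By adjusted p alone 11 of the 22 rose and 4 fell, beside 23.3% and 24.0% of all genes. Timp1, the metalloproteinase inhibitor, rose by 2.99 (SE 0.177, limma adjusted p = 1.22e-08). It went from 11.6 to 106.6 TPM in WT and from 12.6 to 111.1 TPM in P1.hMR. Lox, which crosslinks collagen, rose by 0.98 (SE 0.0919), Plaur, the urokinase receptor, by 0.82 (SE 0.106), and Itga5, a fibronectin receptor subunit, by 0.80 (SE 0.0647). Outside the rule of 4 genes a list, and so named after its values were seen, Col1a1, the main fibrillar collagen gene, fell by 0.68 (SE 0.145, limma adjusted p = 0.00112). The DEGs of the response list therefore held higher protease inhibitor, protease receptor and matrix crosslinking genes beside 1 lower collagen gene. Other collagen genes of the list were not DEGs. Mean TPM of Col3a1 went from 394 to 401 in WT and from 481 to 390 in P1.hMR. That of Col5a1 went from 15.8 to 17.8 in WT and from 18.5 to 17.5 in P1.hMR. Timp1 and Plaur are known to respond to other inflammatory signals as well. These UVB values share their control rats with those of the 10 genes.

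**Figure D4:**
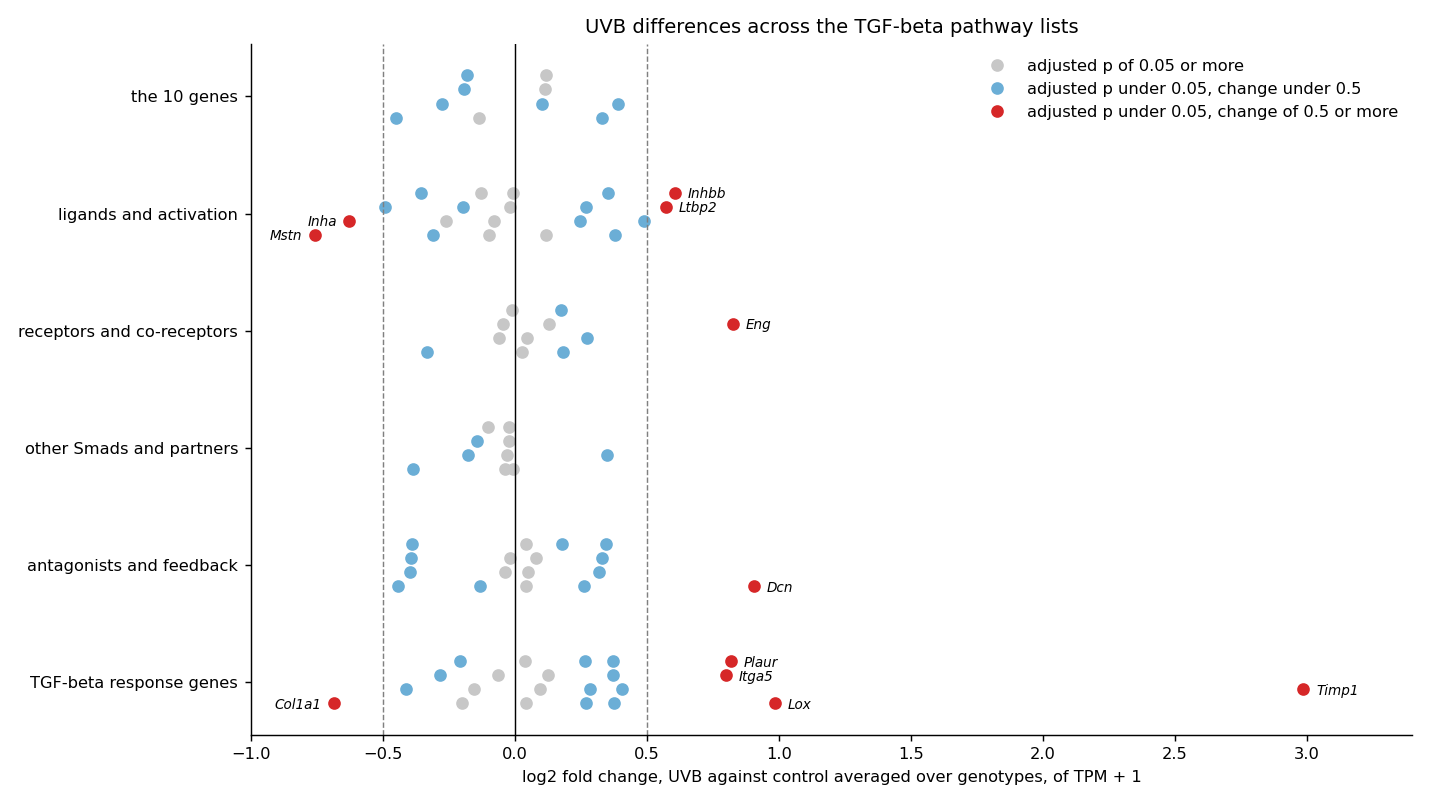
log2 fold change of TPM + 1 (horizontal axis) between UVB and control rats, averaged over the genotypes, for the 10 genes and the tested genes of 5 pathway lists (rows), with a point per gene in red (DEG), blue (adjusted p below 0.05 with a change under 0.5) or grey (neither), and dashed lines at 0.5 either way. No point of the top row is red, and Timp1 at 2.99 is the largest change shown.

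Markers of other cell types moved in the same comparison. Of 8 fibroblast markers 5 were DEGs for the averaged UVB effect, 4 higher and 1 lower, where 4.6% of all tested genes were higher and 4.88% lower. Their sum was 215 to 299 TPM in Control and 290 to 424 TPM in UVB rats. Of 12 macrophage and monocyte markers 7 were higher DEGs, while their summed level overlapped between Control (193 to 525.6 TPM) and UVB rats (234 to 459 TPM). In that list 8 of the 12 had a positive averaged change, and 1 fell by adjusted p alone. Mean TPM of Cd68 went from 39.8 to 30.1 in WT and from 37.9 to 30.7 in P1.hMR. Of 9 hair shaft markers 7 were lower DEGs, with sums of 302 to 805 TPM in Control and 179 to 464 TPM in UVB rats. Of 5 endothelial markers 1 was a higher DEG (40.7 to 50.1 and 48.7 to 55.1 TPM), of 4 T cell markers tested 2 were (3.88 to 9.26 and 5.58 to 13.4 TPM for the 5 listed), and of 8 skeletal muscle markers 2 were lower (2178 to 3808 and 1661 to 3342 TPM). By adjusted p alone 4 of the 5 endothelial markers rose and 1 fell, beside 23.3% and 24.0% of all genes. Mean TPM of Emcn, an endothelial marker, went from 19.2 to 15.5 in WT and from 18.9 to 15.1 in P1.hMR. Only 2 of the 4 T cell markers had a positive averaged change. Mean TPM of Cd3e went from 1.87 to 1.33 in WT and from 2.13 to 1.53 in P1.hMR. Of 10 meibocyte markers 2 were higher and 1 lower, 0 of 6 basal keratinocyte markers was a DEG (8109 to 10332 and 8392 to 13441 TPM), and 1 of 5 suprabasal keratinocyte markers was lower (2618 to 3593 and 2518 to 4354 TPM). By adjusted p alone 3 of the 6 basal keratinocyte markers rose and 1 fell, beside 23.3% and 24.0% of all genes. No list had a marker with a group mean under 0.1 TPM. The part of these cell types in the levels of Tgfb1, Tgfb2, Tgfb3, Smad3, Smad7 and Tgfbi was not tested.

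The genes most like each of the 10 were found from the Pearson correlation of deviations from the group means over the 17 rats, among all tested genes, and are given as a description. Tgfb1 was followed most closely by Ptafr, the receptor for platelet-activating factor (r = 0.945, Spearman's rho = 0.946), then Marcksl1 and Zfp217. Tgfb2 was followed by Gfra2, a receptor for a neurotrophic factor of the wider TGF-beta superfamily (r = 0.933, rho = 0.902), then Tmem184b and AABR07064804.1. Tgfb3 was followed by Slc47a1 (r = 0.871), Thap7 and Nwd1, so the isoforms differed in their 3 nearest genes. Tgfb1 and Tgfb2 still shared a correlated gene farther down. Tgfbr2 had r = 0.804 with Tgfb1, 0.784 with Tgfb2 and 0.307 with Tgfb3. Between the isoforms r was 0.626 for Tgfb1 and Tgfb2, 0.438 for Tgfb1 and Tgfb3, and -0.04 for Tgfb2 and Tgfb3. For the receptors the nearest genes were Rbl2, Parp12 and Wls for Tgfbr1 (highest r = 0.874) and S100a10, Rgma and Septin9 for Tgfbr2 (highest r = 0.95). For the Smads they were Utp25, Atxn7l3 and Cpsf4 for Smad2, Parp3, Tmem233 and Efna4 for Smad3, and Ppp3ca, Il34 and Sfrp4 for Smad7, with first values of 0.906, 0.896 and 0.873. Tgfbi had Sh3bp4, Dpysl3 and Ptk2b (highest r = 0.934) and Inhba had Wdr37, Celsr1 and Nop58 (highest r = 0.837). Across the 30 genes r without the 2 rats farthest from the median was 0.709 to 0.938. Genes of the same libraries share depth and tissue composition, and the nearest of 13105 genes are high by selection.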

How the data were processed

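RNA-seq of dissected MGs from 17 rats in 4 groups was analysed. Per the labels and the study's methods, the authors assessed read quality with FastQC and trimmed reads with Trimmomatic. They aligned the reads to rat build rn7 with STAR and quantified them with RSEM. The labels also name DRAGEN and Picard. The deposited values were TPM, written with decimal commas, which sum to 804378 to 840817 over the listed genes and keep no read depth, so no counting interval could be given. All 17 columns were mapped by the labels' group and replicate names, and 0 were left unmapped. The study's own test works on counts, so log2(TPM + 1) was tested with limma 3.58.1 (R 4.3.3), one mean per group with a variance trend, on genes that reached 1 TPM in 3 or more rats. Fold changes on this scale understate those of low genes. Exact permutation tests were two-sided and exchanged labels within genotype or treatment. Averaged effects weight the genotypes equally. The 10 genes were all named; of each pathway list the 4 DEGs with the largest changes were named, and 1 gene was left out of the response list and is not reported here. Members and lists were chosen with earlier results of these data known. Ratio alternatives, the call by adjusted p alone and 3 promoter motifs were added after seeing the data. The fit was tested on simulated data.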

Additional observations from a re-analysis of the deposited data

Results flagged for a closer look

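In 42 groups of 4 or 5 rats (10 genes and the within-rat ratios), 5 had a rat set apart from the others by more than Dixon's 95% critical value, where chance sets apart about 1 in 20 groups. For Tgfbr1, UVB P1.hMR rat 2 had 12.08 TPM, and the other UVB P1.hMR rats had 9.42 to 9.91 TPM. For Tgfbi, UVB P1.hMR rat 4 had 70.81 TPM and the others 53.79 to 57.0 TPM. For Inhba, Control WT rat 1 had 1.95 TPM and the others 0.97 to 1.13 TPM. Control P1.hMR rat 1 stood apart in the log2 ratio of Tgfb2 to Tgfb1, at -2.08, and in that of Tgfbr1 to Tgfbr2, at -1.69. The other Control P1.hMR rats had -1.97 to -1.93 and -1.81 to -1.80.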

How the results depend on the processing

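The directions of the UVB effects on Tgfb1, Tgfb2 and Tgfb3 held under every alternative run. A pseudocount of 0.1 made 1 of the 10 genes a DEG in WT, in P1.hMR and averaged, and dropping the fold change threshold gave 3, 6 and 7. Leaving out each rat gave 0 to 1 in each of these comparisons. With the compared groups fitted alone, 1 gene passed by adjusted p in WT; with all 4 groups fitted, 1 to 4 passed when a rat was left out. DEGs among all genes numbered 1036, 1410 and 1243 in the 3 UVB comparisons; they were 690, 882 and 790 with a mean of at least 5 TPM (which leaves out Tgfb2 and Inhba), 2820, 5123 and 6192 without a fold threshold, and 219, 300 and 240 with an absolute log2 change of at least 1. Between genotypes under UVB there were 3 DEGs, and 1 with a pseudocount of 0.1, the compared groups alone or the replicate block, 0 with the mean of at least 5 TPM and 1 to 51 with a rat left out. Without UVB there was 1, and 0 with that filter and 1 to 6 with a rat left out; the interaction gave 0 to 8.

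Replicate numbers are shared between groups, but of 22 same-numbered pairs only 4 had deviations correlated above 0.1 (-0.19 to 0.24), so the numbers are not a pairing. With the replicate block the 10 genes gave 0 DEGs in each comparison and all genes 1019, 1400 and 1251 in the UVB comparisons, and 2, 7 and 8 of the 10 passed by adjusted p alone. The calls that differed there were Tgfb2 in WT (-0.40, adjusted p = 0.0858, not passed), Tgfbr2 averaged (0.14, adjusted p = 0.0498, passed) and Tgfbi in P1.hMR (-0.29, adjusted p = 0.0386, passed).

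Values near 0 changed sign. The averaged Smad7 to Smad3 log2 ratio was 0.011 after quantile normalization and -0.045 to 0.036 with a rat left out, and the Tgfb3 to Tgfb1 ratio -0.031 to 0.13 (WT -0.18 to 0.15). P1.hMR against WT under UVB, Tgfb1 was 0.0031 (quantile normalization), 0.0098 (median-of-ratios scaling) and 0.013 (sample weights), Smad2 0.0077 and 0.012 (the first and second of these), and Tgfb3 -0.023 (replicate block). The Tgfb2 interaction was 0.0014 (quantile normalization) and 0.035 (sample weights), the Tgfb3 interaction 0.025 and Tgfbr1 without UVB -0.0030 (both sample weights). With a rat left out, ranges that crossed 0 under UVB were Inhba -0.10 to 0.20, Smad2 -0.036 to 0.018, Smad3 -0.024 to 0.10, Tgfb1 -0.059 to 0.061, Tgfb2 -0.016 to 0.26, Tgfb3 -0.043 to 0.19 and Tgfbi -0.031 to 0.18. Without UVB they were Inhba -0.14 to 0.051, Tgfbi -0.016 to 0.24 and Tgfbr1 -0.017 to 0.056. For the interaction they were Inhba -0.024 to 0.28, Smad2 -0.012 to 0.042, Smad3 -0.11 to 0.017, Tgfb2 -0.15 to 0.13, Tgfb3 -0.12 to 0.11 and Tgfbi -0.16 to 0.12. For UVB they were Inhba (-0.083 to 0.22) and Smad7 (-0.10 to 0.0012) in WT and Tgfbr2 (-0.0018 to 0.068) in P1.hMR. The cause of these changes was not tested.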
